A study of Mus musculus with 40 samples.

Results

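The 8 libraries described here are RNA-seq libraries of double-negative 3 (DN3) thymocytes from tamoxifen-treated mice, out of 40 libraries of early T-cell precursors (ETP) and DN3 cells in the study. They were chosen by a measured value, their own level of Cd8a, which encodes the alpha chain of the CD8 co-receptor, with 12 CPM, the count scaled to a common library total, as the dividing line. The 4 libraries above that level, called Cd8a-high, were DeltaTamCre DN3-1, DeltaTamCre DN3-3, DeltaTamCre DN3-4 and TamCre DN3-2. The 4 libraries below it, called Cd8a-low, were DeltaTamCre DN3-2, TamCre DN3-1, TamCre DN3-3 and TamCre DN3-4. Values per library are given below in this order. Because a measured value chose the libraries, every difference between the 2 sides is a description and carries no test.

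DeltaTamCre mice carried Rosa26CreERT2, a Cre recombinase switched on by tamoxifen and driven by a ubiquitously active locus, together with Zmiz1f/f alleles, and TamCre mice carried Rosa26CreERT2 alone. All were C57BL/6 mice that received 0.2 mg/g tamoxifen and were sorted 43 to 44 hours later, with 4 mice per genotype. The age of the mice was not stated. Other libraries were used as separate samples: 8 ETP libraries of the same 2 genotypes and treatment, and 12 DN3 libraries of DeltaMxCre (MxCre Zmiz1f/f) and MxCre mice given pI-pC 8 weeks before sorting and of mice given AntiNRR, an antibody that blocks Notch1, or IgG 24 hours before.

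Double-negative thymocytes are named for the absence of the CD4 and CD8 co-receptors from their surface. DN3 cells rearrange the T-cell receptor beta locus with the recombinases Rag1 and Rag2, carry the interleukin-2 receptor alpha chain (Il2ra, CD25) and depend on Notch1. Cells that assemble a pre-T-cell receptor divide, switch on CD8 and CD4 and become double-positive cells, the stage that follows. The cells that carried the co-receptor transcripts in these libraries were not identified. Zmiz1 is a transcriptional co-activator of Notch1.

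The Cd8a-high libraries held 48127200 to 91659600 counts, against 60350100 to 88975400 in the Cd8a-low libraries, so depth overlapped between the sides. Over the 8 libraries, 14761 to 15109 genes were detected. The sorted phenotype in the sample notes, CD44+CD25- for DN3 cells, goes against the usual definition of that stage. Il2ra was at 2434 to 3380 CPM and Cd44, the adhesion receptor that DN3 cells lose, at 3.31 to 5.44 CPM over the 8 libraries. The deleted gene, Zmiz1, was at 201, 184, 188 and 243 CPM in DeltaTamCre DN3-1, DN3-3, DN3-4 and DN3-2, against 354, 322, 301 and 312 CPM in TamCre DN3-1 to DN3-4. The genotypes did not overlap, and DeltaTamCre DN3-2, the Cd8a-low library of the deleted group, was the highest of its group.

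The threshold fell in a gap of the Cd8a levels. Just inside it stood DeltaTamCre DN3-3 with 16.8 unscaled CPM (1115 counts, exact 95% Poisson interval 15.8 to 17.8), and just outside it DeltaTamCre DN3-2 with 8.85 unscaled CPM (534 counts, 8.11 to 9.63). These intervals cover counting error only. The sides do not follow genotype: 3 of 4 DeltaTamCre libraries and 1 of 4 TamCre libraries were Cd8a-high.

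Promoters are shown for genes on which the account below turns, from RefSeq on GRCm38.p6, each running from 250 bases before to 50 bases after a gene start. The pair Cd8a (chr6:71373177-71373476, plus strand) and Rag1 (chr2:101649483-101649782, minus strand) is shown because both are genes of the double-positive stage, yet the sides overlap in Rag1. DN3 cells use Rag1 too, and it was at 523 to 751 CPM in the 8 libraries. Capitals mark the E-box CAGCTG, a binding motif of E proteins, and the Runx motif TGTGGT, searched on both strands.
Cd8a: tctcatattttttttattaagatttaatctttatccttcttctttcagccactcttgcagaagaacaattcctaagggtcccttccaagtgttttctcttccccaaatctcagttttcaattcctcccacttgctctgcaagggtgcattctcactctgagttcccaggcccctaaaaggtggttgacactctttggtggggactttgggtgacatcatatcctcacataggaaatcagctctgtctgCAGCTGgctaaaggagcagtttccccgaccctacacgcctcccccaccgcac
Rag1: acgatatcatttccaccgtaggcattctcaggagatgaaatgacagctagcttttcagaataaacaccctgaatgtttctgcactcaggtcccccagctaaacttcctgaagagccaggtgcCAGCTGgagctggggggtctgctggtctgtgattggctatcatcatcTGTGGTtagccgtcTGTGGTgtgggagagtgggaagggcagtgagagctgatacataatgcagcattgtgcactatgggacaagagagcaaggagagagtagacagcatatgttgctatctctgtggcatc
Cd8a held 1 E-box and 0 Runx motifs, and Rag1 held 1 E-box and 2 Runx motifs. Of 32851 promoters of the same length, 16.3% held this E-box and 16.8% this Runx motif. The pair Mcm5 (chr8:75109259-75109558, plus strand) and Mcm6 (chr1:128359656-128359955, minus strand) is shown as 2 helicase genes of the replication list that were lower in the Cd8a-high libraries, and capitals mark the E2F motif TTTNGCGC on either strand.
Mcm5: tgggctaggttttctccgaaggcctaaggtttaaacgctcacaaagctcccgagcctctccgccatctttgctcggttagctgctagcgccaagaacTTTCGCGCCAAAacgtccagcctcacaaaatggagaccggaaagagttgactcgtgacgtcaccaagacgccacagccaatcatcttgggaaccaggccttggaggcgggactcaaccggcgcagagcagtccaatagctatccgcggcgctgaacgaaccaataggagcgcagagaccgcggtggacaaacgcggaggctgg
Mcm6: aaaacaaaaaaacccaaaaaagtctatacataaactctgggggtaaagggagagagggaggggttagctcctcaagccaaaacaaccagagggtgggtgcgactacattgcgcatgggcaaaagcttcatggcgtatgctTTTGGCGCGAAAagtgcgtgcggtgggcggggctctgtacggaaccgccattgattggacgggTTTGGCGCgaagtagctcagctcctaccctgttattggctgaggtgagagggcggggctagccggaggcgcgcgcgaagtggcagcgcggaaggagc
Mcm5 held 2 overlapping matches and Mcm6 held 3, of which 2 overlapped, and 1.38% of the 32851 promoters held a match. Rrm1, a replication gene that was also lower, held 0 matches in its promoter of the same length, so the pair does not speak for the list. A match describes letters in the window and is not a measured site.

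The genes of both co-receptors were higher together in the Cd8a-high libraries. All CPM below were scaled by TMM (trimmed mean of M values) unless called unscaled. Cd8a, the gene that chose the libraries (chromosome 6, 71373427 to 71379173), was at 45.0, 16.5, 25.5 and 26.6 CPM, against 9.08, 7.05, 8.44 and 8.02 CPM in the Cd8a-low libraries. Cd8b1, the beta chain of CD8 and its neighbour on chromosome 6 (71322788 to 71337494), was at 32.1, 15.0, 22.4 and 22.4 CPM, against 9.85, 8.45, 10.6 and 9.09 CPM. Cd4, the other co-receptor (chromosome 6, 124864692 to 124888221), was at 36.1, 15.6, 19.0 and 17.0 CPM, against 5.66, 6.34, 4.89 and 4.99 CPM. In all 3 genes DeltaTamCre DN3-1 was highest and DeltaTamCre DN3-3 lowest among the Cd8a-high libraries, and the Cd8a-low libraries lay close together.

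With genotype as a covariate, the fitted log2 difference (Cd8a-high minus Cd8a-low) was 1.72 (SE 0.32) for Cd8a, 1.85 (SE 0.31) for Cd4 and 1.24 (SE 0.24) for Cd8b1. Cd4 averaged 21.9 ± 9.56 CPM in Cd8a-high libraries and 5.47 ± 0.676 CPM in Cd8a-low libraries (SD, n = 4 each). The difference of Cd4 was 2.04 within DeltaTamCre and 1.63 within TamCre, and that of Cd8b1 was 1.23 and 1.24. In bulk libraries, more cells carrying these transcripts and more transcript per cell cannot be told apart.

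**Figure D1:**
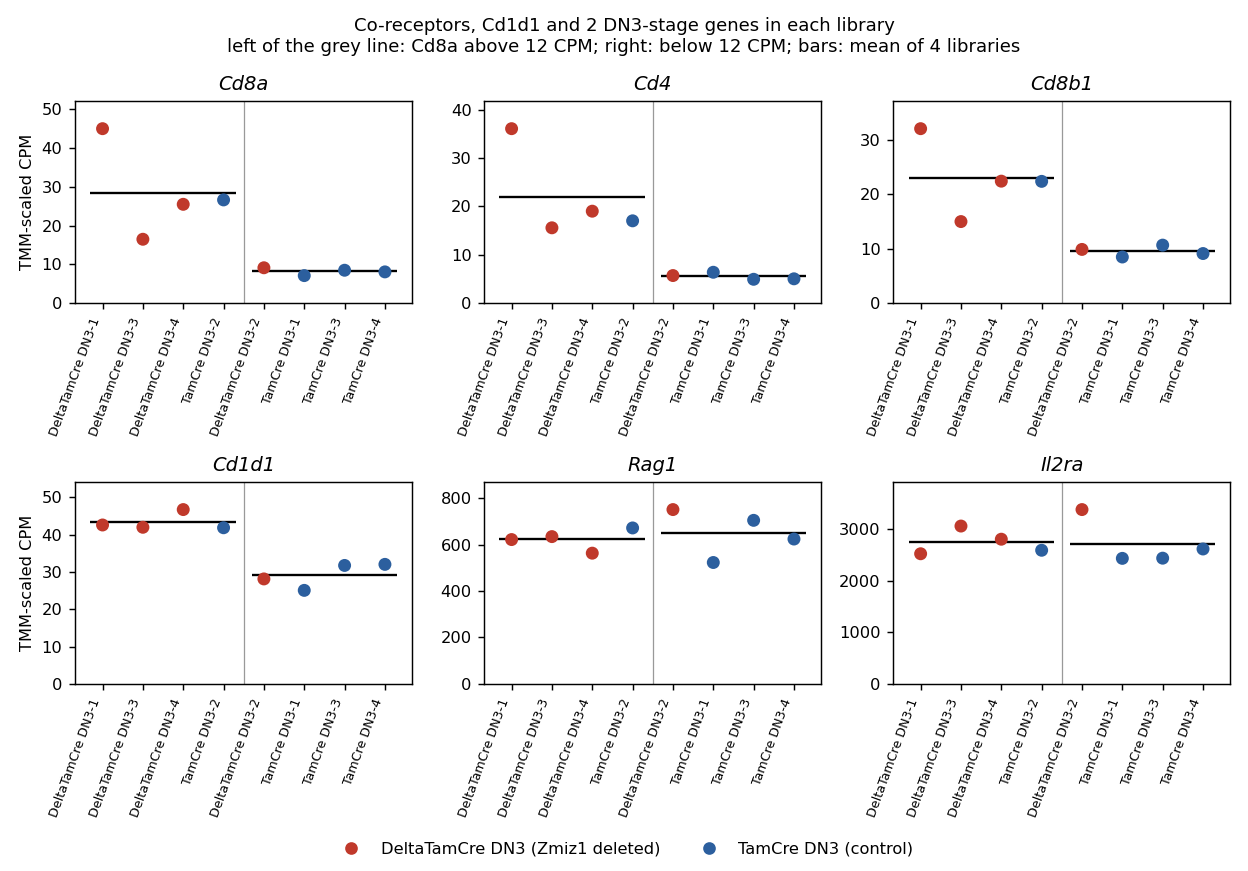
TMM-scaled CPM (y axis, from 0) of 6 genes in each tamoxifen DN3 library (x axis), with Cd8a-high libraries left of the grey line and Cd8a-low libraries right of it, red points DeltaTamCre, blue points TamCre and bars the mean of 4 libraries. Cd8a, Cd4, Cd8b1 and Cd1d1 do not overlap between the sides, while Rag1 and Il2ra do.

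Over all 13298 genes with enough counts, 769 (5.78%) were higher and 121 (0.91%) lower in the Cd8a-high libraries, by a rule that asked for at least 1.5-fold and no overlap between the sides within either genotype. Nothing is read from these shares, since Cd8a itself sorted the libraries. Without a fold minimum, 2414 genes (18.2%) were higher and 2568 (19.3%) lower. The lowest Cd8a-high library was at least 1.5-fold above the highest Cd8a-low library in 12 of the 11326 genes averaging 1 CPM or more, Cd4, Cd8a and Spo11 among them, and the reverse held for 0 genes. Leaving out TamCre DN3-2, the only Cd8a-high control library, gave 1384 higher and 472 lower genes, and leaving out DeltaTamCre DN3-2, the only Cd8a-low deleted library, gave 1160 and 416. In either case the split rests on 1 genotype.

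**Figure D2:**
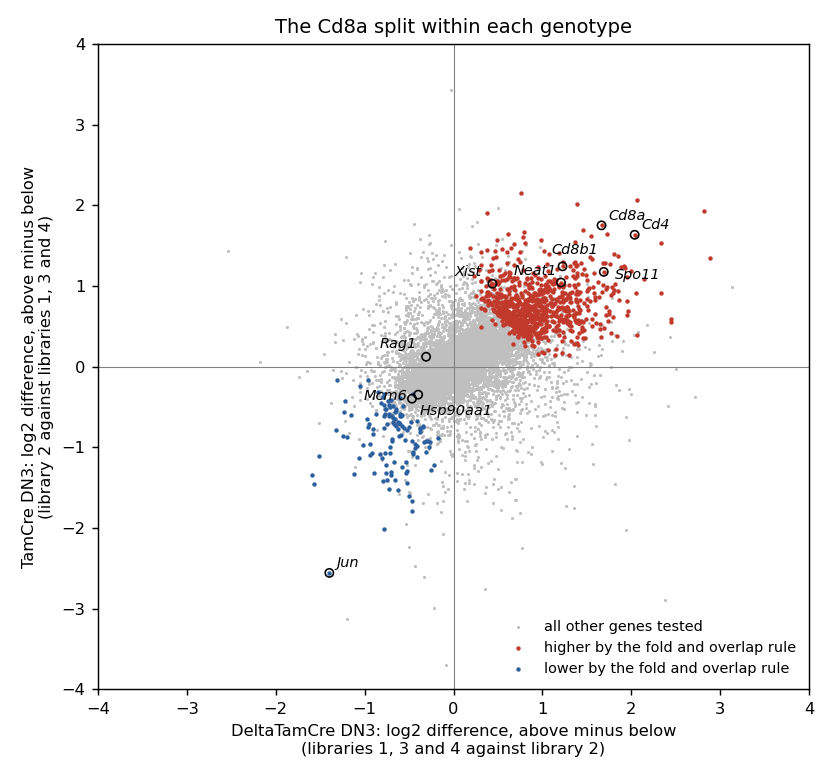
Log2 difference between Cd8a-high and Cd8a-low libraries within DeltaTamCre (x axis, 3 libraries against 1) and within TamCre (y axis, 1 library against 3), with 1 point per gene and 7 genes outside the axes. The 769 genes higher by the rule are red and the 121 lower are blue; Cd8a and Cd4 lie far up in both genotypes, and Rag1 lies near 0.

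Genes of the double-positive stage did not move as 1 block. Of 22 genes on that list, all tested, 6 were higher by the rule and 0 lower, against 5.78% and 0.91% of all genes tested. A difference above 0 was found in 15, and the median difference was 0.19, against -0.01 for all genes tested. Among the 6 were Cd8a, Cd8b1, Cd4, Slc7a11 and Spo11. Cd8a sorted the libraries, so its place in these counts and in the median was fixed by the choice.

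Slc7a11, the cystine transporter subunit, was at 1.84, 1.36, 1.56 and 1.27 CPM, against 0.867, 0.937, 0.800 and 0.808 CPM, a log2 difference of 0.72 (SE 0.31). Spo11, the enzyme of meiotic double-strand breaks, was at 32.9, 26.3, 24.5 and 22.2 CPM, against 8.59, 4.05, 13.7 and 11.6 CPM (1.44, SE 0.43). Unlike in the co-receptors, the Cd8a-low libraries were spread out in Spo11, with TamCre DN3-1 lowest. Cxcr4, a chemokine receptor, was at 368, 410, 405 and 384 CPM, against 274, 259, 356 and 338 CPM. Cd1d1, the lipid-presenting molecule, was at 42.6, 42.0, 46.8 and 41.9 CPM, against 28.1, 25.1, 31.8 and 32.1 CPM. Both were free of overlap between the sides, at log2 differences of 0.40 and 0.57 that did not reach 1.5-fold.

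Most other genes of the same stage overlapped between the sides. Rag1 was at 622, 634, 563 and 672 CPM, against 751, 523, 705 and 624 CPM, and the sides overlapped (log2 difference -0.09, SE 0.12). That difference was -0.31 without TamCre DN3-2 and 0.12 without DeltaTamCre DN3-2. Rag2 was at 106, 102, 85.4 and 118 CPM, against 87.9, 64.7, 108 and 94.4 CPM. Themis, a T-cell receptor signalling protein, had a difference of -0.19, Ets2, a transcription factor, -0.12, Arpp21, an RNA-binding phosphoprotein, 0.09 and Plxnd1, a semaphorin receptor, -0.03, with overlap in each. Ccr9, a chemokine receptor, was at 90.2, 146, 150 and 111 CPM, against 78.0, 70.9, 81.7 and 94.0 CPM, where DeltaTamCre DN3-1 lay within the Cd8a-low range of the 2 genotypes together. Within each genotype the sides of Ccr9 did not overlap, and its difference of 0.58 (SE 0.20, 1.49-fold) fell just short of the fold minimum. Cd2, an adhesion receptor, was at 17.3, 8.06, 11.6 and 9.69 CPM, against 10.5, 14.5, 10.1 and 8.36 CPM, and Bcl2l1, the survival gene of double-positive cells that encodes Bcl-xL, differed by 0.01. Both overlapped. Tox, a nuclear factor of the CD4 lineage, differed by -0.19 (SE 0.08), and was lower without overlap within each genotype. Mns1, Aqp11 and St6gal1 differed by -0.15, 0.09 and -0.24, and Tmie by 0.95 at 0.0510 to 0.241 CPM, all with overlap.

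Genes of the Notch and pre-T-cell-receptor stage differed by less than 1.5-fold. Of 19 Notch and pre-T-cell-receptor genes, 0 were higher or lower by the rule, against 5.78% and 0.91% of all genes tested. Against 9.75% of all genes tested, 2 of the list, Cd247 and Lat, were higher without overlap, at differences of 0.11 and 0.21. The largest difference was that of Hes5, a Notch target, at 3.58, 4.18, 3.58 and 5.01 CPM, against 2.65, 2.82, 3.65 and 3.17 CPM (0.58, SE 0.19, 1.49-fold). Hes5 and Myc (0.25, SE 0.09) were higher, and Tcf12 and Tcf3, which encode E proteins, lower (-0.19 and -0.13), without overlap within each genotype but with overlap over the 8 libraries. Il2ra was at 2523, 3060, 2805 and 2591 CPM, against 3380, 2434, 2437 and 2615 CPM. Notch1 had a difference of -0.13 (SE 0.11), Ptcra, the invariant chain of the pre-T-cell receptor, 0.09 (SE 0.07), and Dtx1, a Notch target, -0.09 (SE 0.12). Against 5.78% of all genes tested, 1 of 10 recombination genes was higher by the rule. That was Dclre1c, which encodes Artemis, the nuclease that opens hairpin ends, at 71.8, 60.7, 60.3 and 62.5 CPM, against 35.9, 30.6, 47.9 and 48.0 CPM (0.70, SE 0.17).

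Genes induced by beta-selection gave no common direction. Of 19 listed and 17 tested, 1 was higher by the rule and 0 lower, against 5.78% and 0.91% of all genes tested. Without overlap, 3 were higher and 1 lower, against 9.75% and 9.90%. The median difference of the list was -0.08, in a range from -0.64 to 0.91. Cd27, a co-stimulatory receptor, was at 262, 293, 305 and 238 CPM, against 238, 227, 204 and 228 CPM, a difference of 0.19. Egr2, a factor induced by receptor signals, was at 2.32, 2.45, 2.41 and 3.80 CPM, against 1.84, 3.21, 1.89 and 3.09 CPM, which overlapped over the 8 libraries and not within each genotype.

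Replication genes were lower in the Cd8a-high libraries by small and even amounts. Of 30 listed genes, 28 had a difference below 0 and 17 were lower with no overlap of 4 libraries against 4, while 0 reached 1.5-fold. By that count 9.90% of all genes tested were lower and 9.75% higher. Of the 8890 genes at 10 CPM or more, 42.2% had a difference above 0. The median difference of the list was -0.24. Its summed level was 7490 to 8475 unscaled CPM in Cd8a-high libraries and 8865 to 9134 unscaled CPM in Cd8a-low libraries. Mcm6, a subunit of the replicative helicase, was at 795, 854, 776 and 782 CPM, against 1065, 1015, 962 and 1008 CPM (-0.37, SE 0.06). Mcm5, of the same helicase, averaged 492 ± 9.09 CPM in Cd8a-high libraries and 619 ± 24.7 CPM in Cd8a-low libraries (SD, n = 4 each). Rrm1, the large subunit of ribonucleotide reductase, was at 508, 442, 417 and 432 CPM, against 630, 578, 590 and 586 CPM (-0.45, SE 0.08). The 4 libraries of a side lay within a narrow range in these genes.

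Mitosis genes gave a different picture. Of 25, 24 had a difference below 0, with a median of -0.25, but 0 were free of overlap. Of all genes tested, 9.75% were higher and 9.9% lower without overlap. Top2a, a topoisomerase of dividing cells, was at 952, 689, 634 and 662 CPM, against 1007, 830, 928 and 907 CPM. Mki67, the proliferation antigen, was at 1034, 589, 560 and 671 CPM, against 1088, 674, 798 and 822 CPM. DeltaTamCre DN3-1, the library with the most Cd8a and Cd4, was above the Cd8a-low libraries in the summed list, with 5880 against 4076 to 5081 unscaled CPM. The other 3 Cd8a-high libraries were at 3331 to 3906 unscaled CPM.

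Chaperone and nucleolar genes were also lower on the Cd8a-high side. Over all genes tested, 9.90% were lower without overlap, and those had a median level of 113 CPM, against 28.7 CPM for all. Of 12 heat shock chaperones, 11 had a difference below 0 and 6 were lower without overlap. Hsp90aa1, a cytosolic chaperone, was at 1176, 1182, 1156 and 1193 CPM, against 1620, 1665, 1514 and 1536 CPM (-0.43, SE 0.06), and varied little within a side. Hspd1, the mitochondrial chaperonin, was at 571, 602, 545 and 642 CPM, against 801, 849, 768 and 770 CPM (-0.40). Of 25 Myc targets, 22 had a difference below 0 and 10 were lower without overlap, with Cad, the enzyme of pyrimidine synthesis, at 245, 255, 283 and 302 CPM, against 396, 593, 358 and 380 CPM (-0.58, SE 0.18). Myc itself was at 438, 545, 494 and 665 CPM, against 376, 603, 607 and 628 CPM, which overlapped over the 8 libraries and not within each genotype. None of 23 interferon-response genes and of 15 p53 target genes was higher or lower by the rule, against 5.78% and 0.91% of all genes. Their median differences were 0.05 and 0.06.

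**Figure D3:**
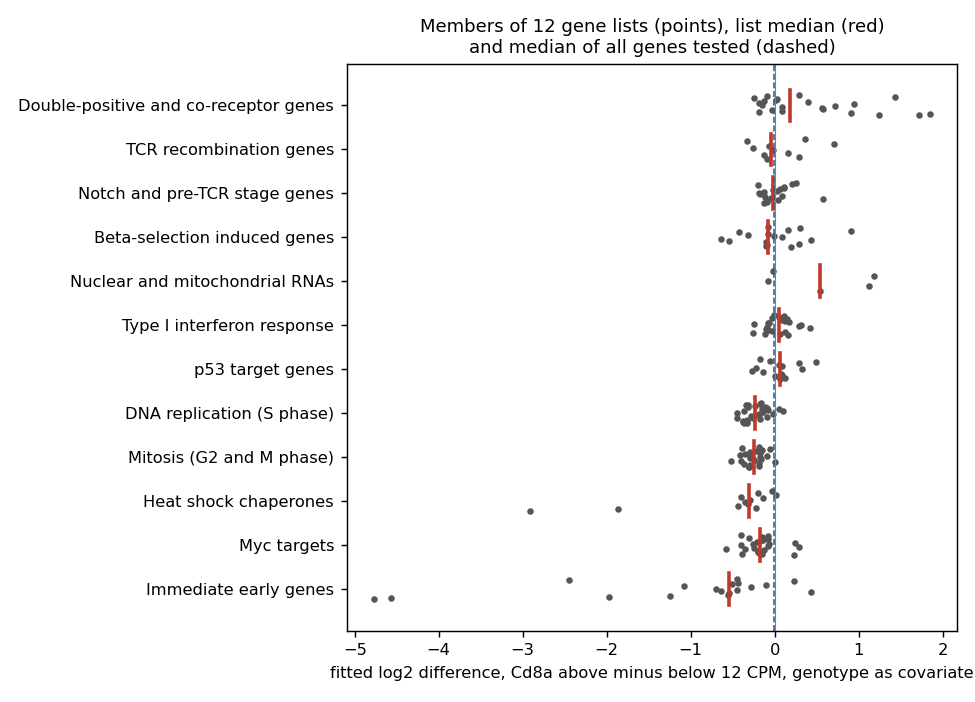
Fitted log2 difference (x axis) of each member (points) of 12 gene lists (y axis), with the list median in red and the median of all 13298 genes dashed. Co-receptor genes reach 1.85 at the right, replication, mitosis and chaperone genes crowd just left of 0, and the far-left points are immediate early genes and Hspa1a and Hspa1b.

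Long non-coding RNAs made up 18.0% of the annotated genes higher by the rule (120 of 666) and 4.05% of all annotated genes tested (483 of 11926). Among the annotated genes lower by the rule they made up 9.26% (10 of 108), also above the share of all. The median difference of long non-coding RNAs was 0.41, with 79.9% above 0, against -0.02 and 46.8% for 11260 protein-coding genes. Neat1, the RNA that builds nuclear paraspeckles, was at 196, 132, 131 and 154 CPM, against 66.0, 35.6, 98.9 and 89.4 CPM (1.13, SE 0.41). Xist, which coats the inactive X chromosome, was at 2262, 1728, 2606 and 2277 CPM, against 1624, 717, 1428 and 1204 CPM (0.73, SE 0.28). Malat1, a nuclear RNA, was at 362, 422, 686 and 400 CPM, against 329, 285, 302 and 263 CPM (0.54, SE 0.22). In Neat1 and Xist, TamCre DN3-1 was lowest of the 8.

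The genes that met the rule in either direction were often of low abundance. Of 1972 genes with a mean under 1 CPM, 14.7% were higher by the rule, against 2.20% of 8890 genes at 10 CPM or more. The shares lower by the rule were 3.25% and 0.236%. Among protein-coding genes, the median difference was 0.02 in the fifth with the shortest transcripts (324 to 2061 bases) and -0.09 in the fifth with the longest (5271 bases or more). RNA-integrity values were not used here, and the part of RNA or library quality in these differences was not tested.

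Among genes that met the rule, some Cd8a-low libraries were extreme more often than others. Of the 769 genes higher by the rule, TamCre DN3-1 was the lowest of the Cd8a-low libraries in 411 (53.4%) and DeltaTamCre DN3-2 in 230 (29.9%), with 65 and 63 for TamCre DN3-3 and DN3-4. Of the 121 lower genes, DeltaTamCre DN3-2 was the highest Cd8a-low library in 61 and TamCre DN3-1 in 34. TamCre DN3-2 was at least 1.5-fold above both TamCre DN3-3 and DN3-4 in 217 (28.2%) of the 769. The rule had already put it above both in every one of these genes. The same shares over all genes tested were not taken, so these counts describe only the genes that met the rule. Without TamCre DN3-1 the counts were 756 higher and 136 lower, and 672 and 95 of these genes were in the counts over 8 libraries.

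Immediate early genes marked that library. Of 18 tested, 16 had a difference below 0, with a median of -0.55, against -0.01 for all genes tested. By the rule 2 (Jun and Dusp1) were lower, against 0.91% of all genes tested. Jun, a subunit of the AP-1 factor, was at 72.9, 32.1, 69.3 and 27.7 CPM in Cd8a-high libraries, against 153, 417, 35.8 and 38.1 CPM in Cd8a-low libraries, a difference of -1.98 that became -0.94 without TamCre DN3-1. Fos, its partner, was at 1.38, 0.354, 3.28 and 0.727 CPM, against 14.0, 247, 0.315 and 0.994 CPM. Dusp1, a phosphatase of stress-activated kinases, was at 12.0, 12.4, 11.4 and 12.9 CPM, against 20.1, 75.9, 13.5 and 13.4 CPM, a difference of -1.08 that became -0.42 without TamCre DN3-1. Hspa1a, an inducible chaperone, was at 17.3, 2.42, 26.3 and 1.09 CPM, against 23.3, 156, 3.87 and 8.05 CPM. TamCre DN3-1 was far above all other libraries in each of these genes, DeltaTamCre DN3-2 came next in Jun, Fos and Dusp1, and TamCre DN3-3 and DN3-4 were near the Cd8a-high libraries. Co-receptor levels of TamCre DN3-1 were like those of the other Cd8a-low libraries.

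**Figure D4:**
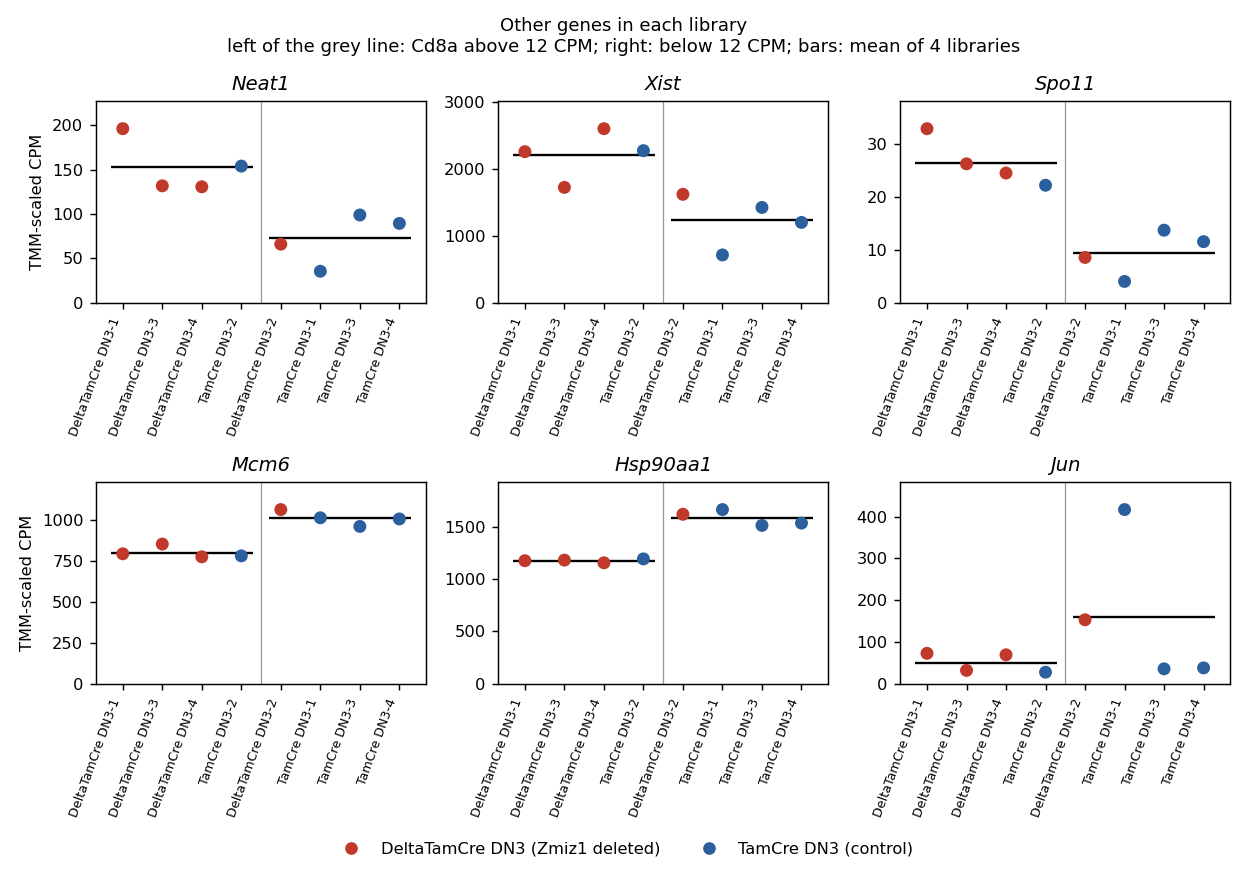
TMM-scaled CPM (y axis, from 0) of 6 further genes in each tamoxifen DN3 library (x axis), drawn as in the co-receptor plot. Neat1, Xist and Spo11 are higher and Mcm6 and Hsp90aa1 lower in all 4 Cd8a-high libraries, and Jun reaches 417 CPM in TamCre DN3-1.

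Beyond the lists, the largest differences upward among genes that met the rule and averaged 1 CPM or more, besides Cd4, Cd8a and Spo11, included Ttyh1, Tppp3, Smarcd3, Insl3, Neurl2 and Tmem22. Smarcd3, a subunit of BAF chromatin remodelling complexes, was at 6.88, 5.43, 4.96 and 6.60 CPM, against 1.63, 1.23, 3.52 and 3.26 CPM (1.55, SE 0.35). Insl3, a hormone of the relaxin family, was at 4.44, 3.30, 4.58 and 6.47 CPM, against 1.46, 2.39, 2.09 and 3.28 CPM (1.40, SE 0.23), so that the nearest libraries of the 2 sides were at almost the same level. Ttyh1, Tppp3 and Neurl2 overlapped when the genotypes were put together. The difference of Neurl2, an adaptor of the neuralized family, was 1.38 and became 0.73 without DeltaTamCre DN3-2 and 2.17 without TamCre DN3-2.

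The largest downward differences among genes that met the rule and averaged 1 CPM or more included Slc15a2, Jun, Slc35e4, Dusp1, Bicd1, Ptgfrn, Ccdc102a, Gucy1a3 and Myo6. Fos, Fosb, Hspa1a, Klf4 and Foxp3 had fitted differences of -4.77, -4.56, -2.92, -2.45 and -1.88 but did not meet the rule, with TamCre DN3-1 highest in each. Slc15a2, a peptide transporter, was at 27.8, 45.0, 47.1 and 0.0214 CPM, against 54.9, 9.48, 38.5 and 22.0 CPM. Its difference of -2.98 rested on TamCre DN3-2, and was -0.46 without that library and -9.98 without DeltaTamCre DN3-2. Slc35e4, a member of the solute carrier families, was at 0.500, 0.516, 1.17 and 0.663 CPM, against 1.45, 2.44, 1.36 and 1.63 CPM (-1.21, SE 0.42). Ptgfrn, a membrane protein of the immunoglobulin superfamily, was at 1.84, 1.24, 2.35 and 1.38 CPM, against 3.30, 3.76, 2.63 and 2.72 CPM, a difference of -0.83 within DeltaTamCre and -1.08 within TamCre. Both were free of overlap. The difference of Ccdc102a, a coiled-coil protein, was -0.95 and became -0.57 without TamCre DN3-2.

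Markers of other cells gave no common direction. Of the lists for mature T cells, gamma-delta T cells, natural killer and innate lymphoid cells, dendritic cells, myeloid cells, B cells, erythroid cells, thymic stroma and progenitors, 0 or 1 tested member each was higher by the rule and 0 were lower. Over all genes tested these shares were 5.78% and 0.91%, so no cell type is read from single members. Among the higher members was Zbtb7b, which encodes ThPOK, the factor of the CD4 lineage, at 0.940, 0.590, 1.27 and 1.05 CPM, against 0.221, 0.664, 0.133 and 0.311 CPM. Its highest Cd8a-low library, TamCre DN3-1, lay above its lowest Cd8a-high library. Others were Cd68, Cd22, Epor and Col1a1. The summed myeloid list was 16.9 to 21.4 unscaled CPM in Cd8a-high libraries and 8.26 to 20.6 unscaled CPM in Cd8a-low libraries. Lyz2, the defining lysozyme of that list, was at 6.99 to 11.6 CPM against 4.41 to 12.6 CPM. The summed B-cell list was 50.4 to 63.2 unscaled CPM against 40.8 to 48.9 unscaled CPM. TMM factors, 1.02 to 1.04 in Cd8a-high and 0.948 to 0.990 in Cd8a-low libraries, would narrow that gap and were not applied. Cd79b, expressed in these libraries at 39.2 to 57.1 CPM, made most of the sum. Hbb-b1, a globin gene, Elane, Foxn1 and Krt14 were at 0 in all 8. The summed gamma-delta list was 170 to 201 unscaled CPM against 156 to 192 unscaled CPM. Foxp3, the factor of regulatory T cells, was at 6.54 CPM in TamCre DN3-1 and at 0.202 to 0.664 CPM in the other 7 libraries, and Il2rb was at 6.61 CPM there and at 0.326 to 1.78 CPM elsewhere. The part of these cells in the split was not tested.

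The deletion itself was compared by label, DeltaTamCre against TamCre DN3, with edgeR's quasi-likelihood test and Benjamini-Hochberg adjustment over 13298 genes. It called 11 genes (0.0827%), 7 higher (0.0526%) and 4 lower (0.0301%), and 2069 genes had an unadjusted p under 0.05. None of the 11 was among the 769 (5.78%) and 121 (0.91%) genes of the split. A gene that differs between the sides varies within each genotype, which makes a call in this fit less likely. Nothing is read from the lack of shared genes. Cd8a (adjusted p = 0.51), Cd4 (adjusted p = 0.40) and Cd8b1 (adjusted p = 0.51) were not called by genotype, at log2 differences of 0.93, 1.19 and 0.65. With the Cd8a side as a covariate, these differences were 0.17, 0.28 and 0.06, though Cd8a itself set the side. Evl, an actin regulator, was called, at 31.2, 25.6, 23.2 and 26.4 CPM in DeltaTamCre DN3-1, DN3-3, DN3-4 and DN3-2, against 14.0, 13.9, 12.4 and 12.3 CPM in TamCre DN3-1 to DN3-4 (1.02, SE 0.11, adjusted p = 0.0083). Its 4 libraries of each genotype kept apart whatever their Cd8a side, and its difference between the sides was 0.06.

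Il31ra, a cytokine receptor subunit, was higher (0.99, SE 0.11, adjusted p = 0.0083) and Zmiz1 lower (-0.66, SE 0.10, adjusted p = 0.037) by the same test. With the Cd8a side as a covariate, 23 genes were called, of which 9 were among the 11. The count depends on single libraries: it was 0 without TamCre DN3-3 or without TamCre DN3-4, 1 without DeltaTamCre DN3-4, 2 without TamCre DN3-1, 4 without DeltaTamCre DN3-3, 5 without DeltaTamCre DN3-2 and 6 without TamCre DN3-2. DESeq2 called 457 genes.

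The 12 other DN3 libraries offered samples that the split had not used. Their Cd8a level ran from 3.17 to 11.5 CPM, below all Cd8a-high tamoxifen libraries, and they were made with another kit. Within their 4 groups, edgeR's quasi-likelihood test of the slope on log2(Cd8a CPM + 1) called 0 of 13556 genes, with 495 at an unadjusted p under 0.05 and a lowest adjusted p of 0.9996, and DESeq2 called 0. The slope of Cd4 was 0.12 (SE 0.50) and that of Cd8b1 0.26 (SE 0.40) per unit of log2 Cd8a. Neat1 and Spo11 had slopes of -0.46 and -0.70, against differences of 1.13 and 1.44 in the split, and neither passed the adjusted threshold.

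The 8 tamoxifen ETP libraries spanned more, from 10.2 to 342 CPM of Cd8a. With genotype as a covariate, the same edgeR test called 46 of 12923 genes (0.356%), all with positive slopes. Cd8b1 had a slope of 1.20 (SE 0.07, adjusted p = 1.12e-05) and Slc7a11 of 0.64 (SE 0.08, adjusted p = 0.0040). Of 21 double-positive genes tested, 8 were called, and 5 of these, Rag1, Themis, Ets2, Plxnd1 and Arpp21, had overlapping sides and differences between -0.19 and 0.09 in the split. Rag1 had the lowest p, with a slope of 1.09 (SE 0.04, adjusted p = 7.50e-08). Its level ran from 72.0 to 2627 CPM in the ETP libraries, against 523 to 751 CPM in the tamoxifen DN3 libraries. The kits of these sets differed, so these levels are not on a common scale. The part of level or kit in the contrast was not tested. Cd4 had a slope of 0.38 (SE 0.19, adjusted p = 0.63), and Spo11 of 0.27 (SE 0.22, adjusted p = 0.79).

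Of the 46 genes, 7 were higher and 0 lower by the rule of the split, and 30 had a difference above 0. Their median difference was 0.09, against -0.01 for all genes tested. The count of 46 was 129 without DeltaTamCre ETP-1, 147 without DeltaTamCre ETP-2, 28 without DeltaTamCre ETP-3 and 8 without DeltaTamCre ETP-4, the library with the most Cd8a. Whether the slope in ETP differs from the difference in DN3 libraries was not tested, since the kits and scales differ.

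**Figure D5:**
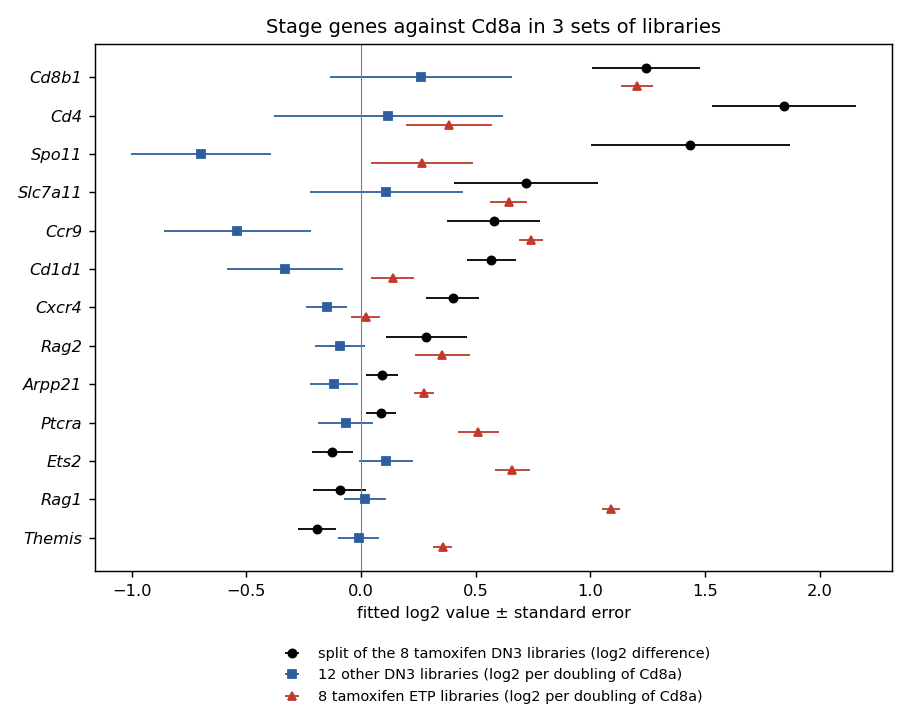
Fitted value and standard error (x axis, log2) of 13 stage genes (y axis) in 3 sets: the split of the 8 tamoxifen DN3 libraries as a difference, and slopes per unit of log2(Cd8a CPM + 1) in 12 other DN3 libraries and 8 tamoxifen ETP libraries. Differences and slopes are unlike measures, so their sizes are not compared. Cd8b1 has a difference of 1.24 in the split and a slope of 1.20 in ETP. Rag1 is near 0 in both DN3 sets and has a slope of 1.09 in ETP. Cd4 has a difference of 1.85 in the split and a slope of 0.38 in ETP.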

How the data were processed

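RNA-seq of sorted thymocytes was deposited as 3 tables of estimated counts per gene symbol, which need not be whole; they were rounded. Per the submitters' processing notes, the build was mm10 and the tools included Cuffdiff 2.1.1, Cufflinks, Bowtie2 2.1.0.0, TopHat2 2.0.9 and FastQC 0.10.0; strand handling is not given in the sources used here. Per the labels, tamoxifen DN3 libraries used a TruSeq mRNA kit (100 ng RNA, 12 PCR cycles), ETP libraries a total RNA kit with 15 cycles, and the other DN3 libraries (11695700 to 19133100 counts) a SMARTer kit, so no fit joined tables. Total counts of the tamoxifen ETP libraries were 17418600 to 30975300. Depth sets the precision of low genes most.

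In R 4.3.3, genes were filtered with filterByExpr (minimum count 10, total 15), scaled by TMM and fitted with edgeR 4.0.16 (robust quasi-likelihood, prior count 0.125). The split was fitted as Cd8a-high minus Cd8a-low with genotype as covariate and no p-value. Genotype and slopes on log2(Cd8a CPM + 1), with genotype or group as covariate, were tested with Benjamini-Hochberg adjustment at 0.05. Scripts were tested on simulated data. Alternatives were DESeq2 1.42.0, its size factors, no low-count filter, other fold thresholds, a replicate block, the Cd8a side as covariate, another pseudocount and leaving out libraries. Replicates are separate mice as far as the labels say, with 4 mice per tamoxifen group; no 2 tamoxifen DN3 libraries of a genotype agreed within sampling noise.

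The members and gene lists were chosen with earlier results of these data known. Named genes are Cd8a, Cd4 and Zmiz1, up to 4 members per list with the largest differences (co-receptor, recombination and Notch lists in full), the 10 largest rises and falls among genes that met the rule of the split and averaged 1 CPM or more, without gene models and small RNAs, and the lowest p of each test; Cd27, Mcm5, Zbtb7b, Epor, Col1a1 and Hbb-b1 fall outside this rule and were chosen after their values were seen. Positions, biotypes and lengths are from GENCODE M21 on GRCm38, matched by symbol for 89.7% of tested genes. Ribosomal protein genes were not analysed here, and 25 date-like names could match no list. Some named genes are not reported here.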

Additional observations from a re-analysis of the deposited data

Results flagged for a closer look

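Among 52 gene and genotype groups of 4 libraries, 8 held a library far from the other 3. Chance gives about 1 in 20 such groups when genes are not chosen for it, but most of these genes were named for a split that sets 1 library apart from 3 in each genotype, so the count of 8 is partly fixed by that choice and is not read against chance. TamCre DN3-2 stood above the other TamCre DN3 libraries in Cd8a (26.6 CPM, against 7.05 to 8.44), Cd4 (17.0 CPM, against 4.89 to 6.34) and Cd8b1 (22.4 CPM, against 8.45 to 10.6). Cd8a placed this library on its side, so its Cd8a level restates the choice. TamCre DN3-1 stood above its group in Jun (417 CPM, against 27.7 to 38.1), in Dusp1 (75.9 CPM, against 12.9 to 13.5) and in Gucy1a3, a subunit of soluble guanylate cyclase (1.27 CPM, against 0.417 to 0.544). DeltaTamCre DN3-2 stood above its group in Dusp1 (20.1 CPM, against 11.4 to 12.4) and in Gucy1a3 (2.11 CPM, against 0.996 to 1.15).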

How the results depend on the processing

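The difference of Cd8a lay between 1.51 and 1.85, that of Cd4 between 1.63 and 2.05 and that of Cd8b1 between 1.10 and 1.35 when single libraries were left out. The counts of the split (769 higher, 121 lower) were 282 and 48 at 2-fold, 2414 and 2568 without a fold threshold, and 488 and 36 when the 4 libraries had to be apart whatever the genotype. Leaving out single libraries gave 756 to 1384 higher and 136 to 472 lower. The genotype count (11) was 457 in DESeq2, 23 with the Cd8a side as a covariate and 0 to 8 without single libraries. The ETP slope count (46) was 247 in DESeq2, 535 without the 2 libraries farthest from the median Cd8a (TamCre ETP-2 and DeltaTamCre ETP-2) and 8 to 147 without single libraries. The slope count of the other DN3 libraries was 0 to 1 without single libraries, with 1 only without MxCre DN3-2. The cause was not tested.

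The labels do not say that replicate numbers pair the libraries. Same-numbered tamoxifen DN3 libraries deviated with r = -0.40, -0.58, -0.01 and -0.05, and those of ETP with 0.14, 0.04, 0.13 and 0.16. In DN3 every such pair lay on opposite Cd8a sides, so these values cannot show whether the numbers mark pairs. With the replicate block the split gave 783 higher and 122 lower, the genotype test 0, the ETP slope 4 and the other DN3 slope 0. DESeq2 size factors and no low-count filter left each of the 5 counts within 1.5 times. Each Cd8a-low DeltaTamCre and Cd8a-high TamCre value rests on 1 library, and genes under 1 CPM are the least precise.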
